A study of Homo sapiens with 4 samples.

Results

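The genes that write, copy, maintain and remove methylation on cytosine were followed in MV4-11 cells, a human acute myeloid leukemia (AML) line that carries an MLL fusion, after knockdown of the histone chaperone ANP32B. The list was set by symbol and held 10 genes, DNMT1, DNMT3A, DNMT3B, UHRF1, CDCA7, CDCA7L, HELLS, TET1, TET2 and TET3, of the 18885 genes in the deposited table. It was chosen by gene family with the TPM of this same contrast, sh-ANP32B against control, already known, so the values of these genes are given as a description, with no test. Of the 10 genes, 9 had values. TET1 had no row in the table used here, which lists genes from a mean of about 0.5 TPM up, and no level is given for it.

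RNA-seq was carried out on 2 libraries of control cells (sh-NC) and 2 libraries of cells with a short hairpin RNA against ANP32B (sh-ANP32B). The labels list the control cells as untreated and without shRNA, whereas the study describes a transduced sh-NC control and puromycin selection, and the study's name is used here. If the control cells carried no hairpin, transduction and selection cannot be told apart from the loss of ANP32B. The knockdown columns share a single mark, S3, so effects of that hairpin beyond ANP32B cannot be told apart from its loss either. Nothing in the labels says that the libraries of a group came from separate cultures, so the spread between these libraries may be technical. The standard errors come from limma, which draws each gene's variance towards a value shared across genes. They are therefore not the spread of a gene's own libraries. TET2, for example, had a replicate SD of 0.077 and a standard error of 0.128 on the log2 scale. Values are TPM, read density over gene length scaled to a common total per library. The gene lengths used are not given in the sources used here, and orders and shares of level between genes rest on them. ANP32B itself had 358 and 364 TPM in sh-NC and 54.1 and 49.3 TPM in sh-ANP32B, 14.3% of the control mean. Of 7 genes that mark this line, 5 had a row. CD33 and HOXA9 were well expressed in all libraries and FLT3 lay between 5.52 and 6.30 TPM, and these were not called. MEIS1 fell from 44.2 and 47.9 TPM to 30.2 and 29.6 TPM, SPI1 rose from 250.3 and 257 TPM to 361 and 361 TPM, and the progenitor markers MPO and CD34 had no row. Of 9 markers of T, B, erythroid, epithelial, endothelial and stromal cells, 8 had no row, and the other, PECAM1, rose from 20.7 and 20.8 TPM to 51.9 and 51.0 TPM (log2 fold change 1.27, adjusted p = 1.37e-04 from limma). Monocyte markers rose in the same libraries, as given below, and the source of the PECAM1 rise was not tested.

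In DNA methylation of mammalian cells, DNMT1 copies the methyl mark onto the new strand after replication, and UHRF1 brings it there by binding CpG sites that are methylated on the old strand only. HELLS is a chromatin remodelling ATPase that needs CDCA7, a zinc finger protein, to reach nucleosomes and open them to the methylation machinery, and CDCA7L is the paralog of CDCA7. DNMT3A and DNMT3B place new methylation, and the TET enzymes oxidise methylcytosine as a step towards its removal. Inherited mutations in DNMT3B, ZBTB24, CDCA7 or HELLS cause ICF syndrome, in which satellite DNA loses methylation, and DNMT3A and TET2 are recurrently mutated in AML.

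The maintenance genes and the remodelling pair were lower after ANP32B knockdown, whereas DNMT3A was higher. CDCA7 was left at 39.1% of its control mean, HELLS at 47.8%, UHRF1 at 48.0%, DNMT1 at 60.8% and CDCA7L at 66.1%. DNMT3A stood at 173% of its control mean, TET2 at 139%, TET3 at 121% and DNMT3B at 72.4%. A gene was called when limma gave a Benjamini-Hochberg adjusted p below 0.05 over all 16937 genes tested and its log2 fold change lay beyond 0.5. At these limits 5 of the 9 genes were lower and 1 was higher. Of all genes tested, 10.1% were called lower and 17.9% higher. At a fold limit of 1, 3 of the 9 genes were lower and 0 higher, against 1.61% and 6.71% of all genes. The groups did not overlap for any of the 9 genes, as for 74.7% of all genes tested. These counts come from the contrast that was known when the list was chosen, and nothing is read from them. The split of calls over all genes depended on scaling, as the lower share was 36.1% on the deposited TPM, 48.9% with median-of-ratios scaling and 50.2% with quantile normalization.

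**Figure D1:**
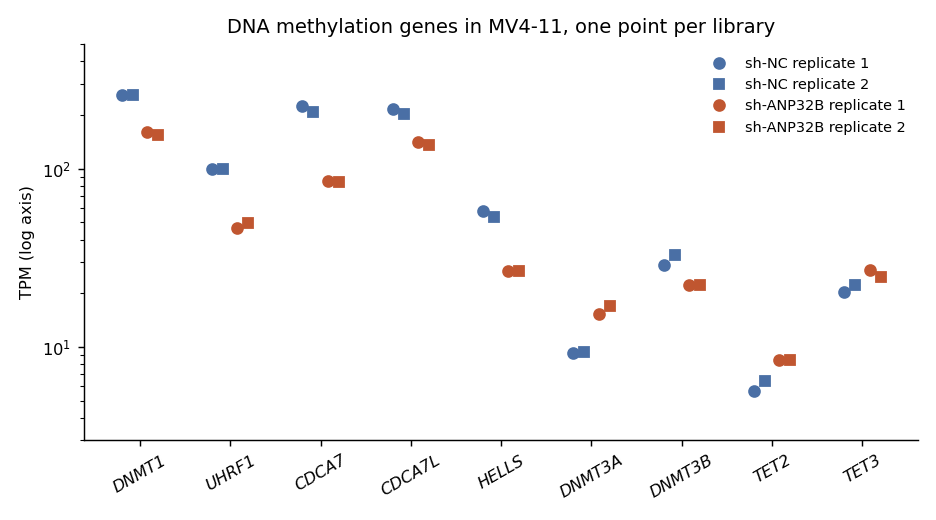
TPM of the 9 listed genes in each library, on a log axis, with sh-NC in blue and sh-ANP32B in orange and 1 point per library. DNMT1, UHRF1, CDCA7, CDCA7L and HELLS lie lower in both sh-ANP32B libraries, and DNMT3A lies higher in both, with 9.22 and 9.42 TPM in sh-NC and 15.2 and 17.0 TPM in sh-ANP32B.

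The promoter sequences of 4 of the 5 lower genes are shown because each held at least 1 of 4 forms of a short motif, though not all the same form. E2F factors, which drive replication genes as cells enter S phase, bind sites of the forms TTTCCCGC, TTTGGCGC, TTTCGCGC and TTTGCCGC. These 4 forms, chosen after the values were seen, were searched on both strands of the RefSeq windows (build GRCh38.p14) from 250 bases before to 50 bases after each annotated start. All 10 genes had at least 1 window. CDCA7, HELLS, UHRF1 and DNMT1 held a match, and CDCA7L, DNMT3A, DNMT3B, TET1, TET2 and TET3 held none. Of all 35116 windows of the table, non-coding genes included, 3.31% held a match, and of all 27305 genes 3.99% did in at least 1 window. Each form contains a CpG, and these shares were not matched for CpG content. The windows of CDCA7, HELLS and DNMT1 held 20, 22 and 30 CpG sites and those of UHRF1 36 to 46, where the median of all windows was 14. Each stretch runs 5′ to 3′ on the strand of the gene, from 150 bases before the start to 30 bases from it on, with matches in capitals.
CDCA7: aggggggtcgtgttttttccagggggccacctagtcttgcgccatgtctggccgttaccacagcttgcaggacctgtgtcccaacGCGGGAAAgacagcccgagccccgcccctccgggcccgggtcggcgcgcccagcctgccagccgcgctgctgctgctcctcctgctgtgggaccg
HELLS: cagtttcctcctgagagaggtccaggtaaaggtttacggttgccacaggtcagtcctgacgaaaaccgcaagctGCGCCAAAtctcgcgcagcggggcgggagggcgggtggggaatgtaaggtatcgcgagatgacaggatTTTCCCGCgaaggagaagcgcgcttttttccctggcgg
UHRF1: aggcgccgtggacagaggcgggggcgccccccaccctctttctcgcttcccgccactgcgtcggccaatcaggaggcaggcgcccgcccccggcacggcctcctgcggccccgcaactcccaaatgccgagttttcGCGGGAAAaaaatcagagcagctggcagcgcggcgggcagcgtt
DNMT1: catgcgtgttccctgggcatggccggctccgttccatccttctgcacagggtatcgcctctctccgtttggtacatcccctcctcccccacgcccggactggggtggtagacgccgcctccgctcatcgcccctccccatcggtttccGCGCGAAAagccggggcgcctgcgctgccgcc

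These stretches lie at chr2:173354722-173354901 (plus strand) for CDCA7, chr10:94545638-94545817 (plus strand) for HELLS, chr19:4909351-4909530 (plus strand) for UHRF1 and chr19:10194924-10195103 (minus strand) for DNMT1. Counted from the start site as 1, with the base before it as -1, the CDCA7 match runs from -65 to -58 and reads TTTCCCGC on the opposite strand. HELLS held TTTGGCGC on the opposite strand from -76 to -69 and TTTCCCGC on its own strand from -8 to -1, and the pair did not overlap. In UHRF1 the match from -14 to -7 was TTTCCCGC on the opposite strand, and another of its 3 windows, which is not shown, held TTTCGCGC. The DNMT1 match, TTTCGCGC on the opposite strand, covered the start site itself, from -2 to 6. With the shorter motif TTCCCGC, CDCA7, HELLS, UHRF1 and TET3 held a match, against 7.82% of all genes. DNMT3A had 6 windows, TET1 had 3, and TET2 and TET3 had 2 each. The start site of the DNMT1 window lies 36333 bases inside the gene as GENCODE gives it, that of the single DNMT3B window 17467 bases and that of the UHRF1 stretch 6421 bases, and promoters further upstream were not searched. The DNMT3B window held 3 CpG sites, whereas the median of all windows was 14. The other genes held between 6 and 46 CpG sites per window. A match is a description of letters and not of binding, and no binding data were analysed here.

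DNMT1 (chromosome 19 of hg38, from 10133342 to 10231286, minus strand) had the highest TPM of the list. The control libraries held 258 and 260 TPM of it and the knockdown libraries 160 and 155 TPM, which gave means of 259 ± 1.86 and 158 ± 3.66 TPM (SD, n = 2). Both knockdown libraries lay well below both control libraries, and the log2 fold change on log2(TPM + 1) was -0.71 (standard error 0.039). UHRF1 (chromosome 19, from 4903080 to 4962154, plus strand), its recruiter, had 100.05 and 99.49 TPM in sh-NC and 46.2 and 49.5 TPM in sh-ANP32B. The log2 fold change of UHRF1 was -1.04 (standard error 0.055), and 1.42% of the genes tested had a lower value. UHRF1 was lower by more than DNMT1, so that within a library the ratio of UHRF1 to DNMT1 TPM was 0.388 and 0.382 in the control cells against 0.289 and 0.320 after knockdown. A constant factor per library does not change this ratio.

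CDCA7 (chromosome 2, from 173354820 to 173368997, plus strand) had the lowest log2 fold change of the list. Its level was 225 and 208 TPM in sh-NC and 85.6 and 83.8 TPM in sh-ANP32B, and the gap between the groups was many times the gap within either. The log2 fold change was -1.34 (standard error 0.052), which placed CDCA7 61 from the lowest of the 16937 genes tested. CDCA7L (chromosome 7, from 21900899 to 21945903, minus strand), which encodes a MYC-binding protein, began at nearly the same level, with 217 and 201 TPM in sh-NC. After knockdown it stood at 141 and 136 TPM, a smaller difference with a log2 fold change of -0.59 (standard error 0.052). CDCA7L shares 833 exonic bases with DNAH11 on the opposite strand, a gene with no row. The ratio of CDCA7 to CDCA7L TPM was 1.04 and 1.03 in control cells and 0.608 and 0.617 after knockdown. In each control library CDCA7 was the higher by a few percent, though the ranges of the paralogs overlapped, and in the knockdown cells CDCA7L was the higher of them in both libraries.

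HELLS (chromosome 10, from 94545329 to 94613905, plus strand) had 58.2 and 53.7 TPM in sh-NC and 26.7 and 26.7 TPM in sh-ANP32B. Its log2 fold change of -1.04 (standard error 0.066) was smaller in size than that of its partner CDCA7. The ratio of HELLS to CDCA7 TPM was accordingly 0.259 and 0.258 in control cells and 0.312 and 0.319 after knockdown. HELLS shares 438 exonic bases on the same strand with ENSG00000244332, a gene that had 14.8 and 9.18 TPM in sh-NC and 6.15 and 6.01 TPM in sh-ANP32B, so reads there could have been assigned to either.

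Of the de novo enzymes, DNMT3A was called higher and DNMT3B was not called. DNMT3A (chromosome 2, from 25227855 to 25342590, minus strand) had 9.22 and 9.42 TPM in sh-NC and 15.2 and 17.0 TPM in sh-ANP32B, with a log2 fold change of 0.73 (standard error 0.105). DNMT3B (chromosome 20, from 32762385 to 32809359, plus strand) had 28.9 and 32.6 TPM in sh-NC and 22.3 and 22.2 TPM in sh-ANP32B. Its log2 fold change was -0.45 (standard error 0.083), inside the limit of 0.5. Without the first sh-NC library it was -0.53 and DNMT3B was called lower. The ratio of DNMT3A to DNMT3B TPM was 0.319 and 0.289 in control cells and 0.682 and 0.767 after knockdown. The summed TPM of the 3 methyltransferases was 296 and 302 in control cells and 198 and 194 after knockdown. DNMT1 made up 87.1% and 86.1% of this sum before and 81.0% and 79.8% after knockdown. The DNMT3A share was 3.12% and 3.12% in control cells against 7.71% and 8.78%, and that of DNMT3B 9.78% and 10.8% against 11.3% and 11.4%. Values are per gene, and isoforms of DNMT3A or DNMT3B were not separated. The annotation names 1 pseudogene of DNMT3A, whose reads could have been mixed with its own.

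TET2 and TET3 had higher values in both knockdown libraries. TET2 (chromosome 4, from 105145875 to 105279816, plus strand) had 5.69 and 6.44 TPM in sh-NC and 8.44 and 8.45 TPM in sh-ANP32B, a log2 fold change of 0.42 (standard error 0.128). With quantile normalization it was 0.23. TET3 (chromosome 2, from 73984910 to 74108176, plus strand) had 20.4 and 22.2 TPM in sh-NC and 26.8 and 24.8 TPM in sh-ANP32B, a log2 fold change of 0.27 (standard error 0.085). With median-of-ratios scaling it was 0.17. Neither was called on the deposited TPM or under these scalings. TET3 shares 390 exonic bases on the same strand with ENSG00000235499, whose TPM was also higher in both knockdown libraries. The summed TPM of TET2 and TET3 per summed TPM of the 3 methyltransferases was 0.0882 and 0.0947 in control cells and 0.179 and 0.171 after knockdown.

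**Figure D2:**
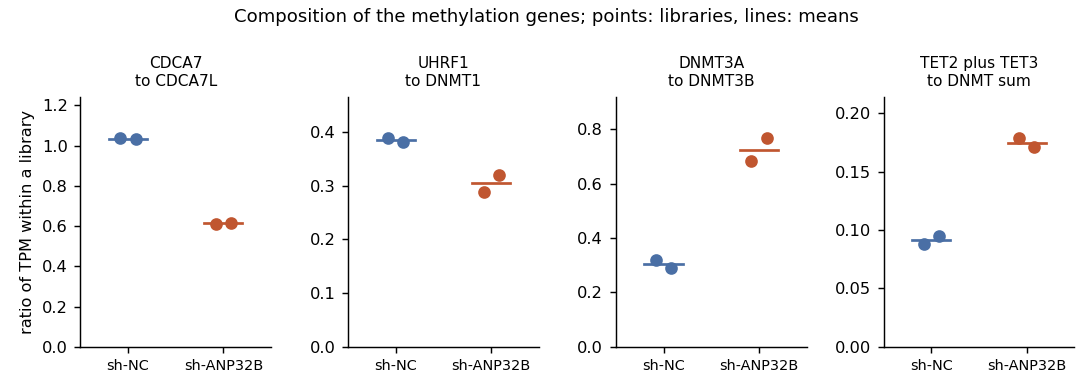
Ratios of TPM within each library, with a point per library and a line at the mean of 2 libraries for sh-NC (blue) and sh-ANP32B (orange), all axes starting at 0. CDCA7 to CDCA7L and UHRF1 to DNMT1 are lower in both knockdown libraries, and DNMT3A to DNMT3B and the TET to DNMT ratio are higher in both.

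The order of the genes by TPM, which depends on the gene lengths used, changed with the knockdown. In sh-NC it ran from DNMT1 through CDCA7 and CDCA7L, whose ranges overlapped between libraries, to UHRF1, HELLS, DNMT3B, TET3, DNMT3A and TET2. In sh-ANP32B the order was DNMT1, CDCA7L, CDCA7, UHRF1, HELLS, TET3, DNMT3B, DNMT3A and TET2. HELLS and TET3, which stood well apart in the control cells, could not be separated there, with 26.7 and 26.7 TPM against 26.8 and 24.8 TPM.

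**Figure D3:**
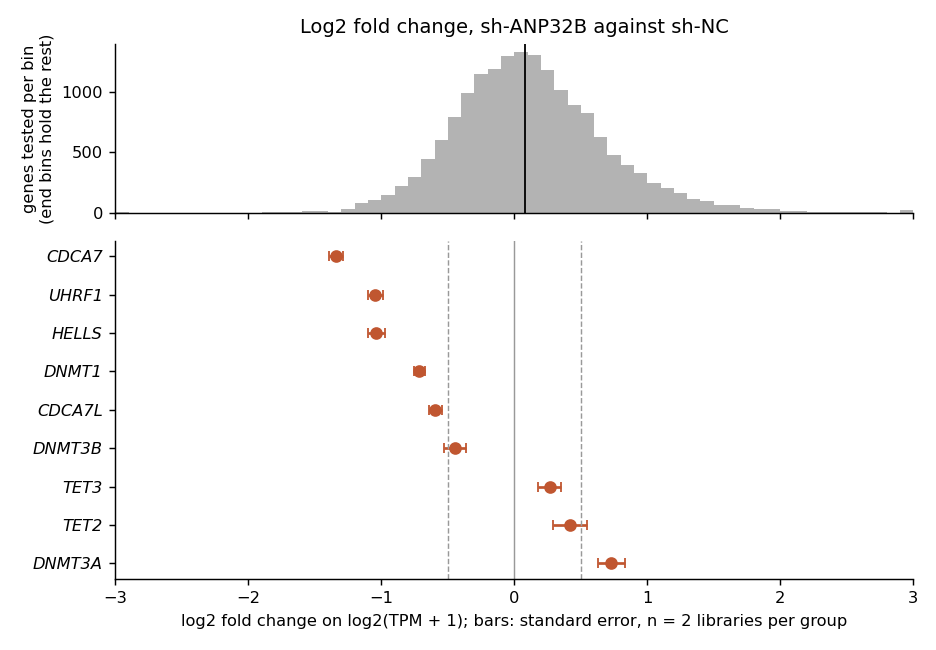
Top, the number of genes tested in bins of the log2 fold change of sh-ANP32B against sh-NC, with a line at their median of 0.08. Bottom, the log2 fold changes of the 9 listed genes with their standard errors from limma (2 libraries per group), from -1.34 for CDCA7 to 0.73 for DNMT3A. Dashed lines stand at the fold limit of 0.5 in either direction.

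CDCA7, UHRF1 and HELLS are also members of the S-phase gene list of the R package Seurat, which scores cells by cell cycle phase. Among the 43 genes of that list, ordered from the lowest log2 fold change, CDCA7 ranked 2, UHRF1 13 and HELLS 14. The 40 other S-phase genes had a median log2 fold change of -0.95, where all genes tested had a median of 0.08, and 37 of them were called lower and 0 higher (10.1% and 17.9% of all genes were called). Without a fold limit, as for such counts in the lists that follow, 39 had an unadjusted p below 0.05 in limma and were lower, and 0 were higher, against 23.2% and 30.9% of all genes. Their summed TPM was 4056 and 4062 before and 2079 and 2071 after knockdown. DNMT1, at -0.71, lay above this median but inside the range of the 40 genes, from -1.48 to -0.22, as did CDCA7L and DNMT3B. DNMT3A, TET2 and TET3 had positive values, whereas none of the 40 did. The part of these S-phase genes in the values of the methylation genes was not tested. From such bulk libraries alone, fewer cells in S phase and less RNA per cell cannot be told apart, and neither part was tested. By flow cytometry, the study reports a lower share of cells in S phase after the knockdown in this cell line. Monocyte markers also moved with the knockdown. Of 12 such markers 10 had a row, 9 of these were called higher, and their summed TPM was 726 and 721 before and 6394 and 6349 after knockdown, while CD14 and VCAN had no row. Their part in the results was not tested.

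The genes most like CDCA7 were sought among 9631 other genes averaging 10 TPM or more, by the Euclidean distance of the 4 log2(TPM + 1) values after centring on the sh-NC mean. MCM3, a subunit of the replicative helicase, was nearest (distance 0.067), with 249 and 246 TPM in sh-NC and 98.6 and 97.2 TPM in sh-ANP32B. DIAPH3, SSX2IP, C4orf46 and FAM72B followed at distances from 0.102 to 0.112, and FAM72B belongs to a family of near-identical copies between which reads could be split. The nearest to UHRF1 were SMC1B, EIF4EBP1, TROAP, TTK, a kinase of the spindle checkpoint, and INCENP, a subunit of the chromosomal passenger complex, at distances from 0.029 to 0.045. EIF4EBP1, which restrains cap-dependent translation, had 412 and 408 TPM in sh-NC and 196 and 205 TPM in sh-ANP32B. With 4 libraries in 2 groups, such likeness mainly reflects the size of the group difference.

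The wider pathway was followed in 6 lists of 65 genes in all, of which 59 were tested. Of these, 15 were called lower and 5 higher, where 10.1% and 17.9% of all genes were, and their median log2 fold change was -0.18. PCNA, CHAF1B and UNG of these lists, all called lower, also stand in the S-phase list above, so both counts hold them. The proteins that work with DNMT1 and UHRF1 at the replication fork held 7 of the 15 lower calls. Of 13 such genes, 7 fell, 0 rose and 6 were not called, with a median of -0.51. At an unadjusted p below 0.05 in limma 10 were lower and 0 higher, against 23.2% and 30.9% of all genes. PCNA, the sliding clamp that binds DNMT1, fell from 402 and 403 TPM to 192 and 192 TPM (log2 fold change -1.07, adjusted p = 6.68e-05 from limma). PCLAF, a clamp-associated protein through which UHRF1 loads DNMT1, fell from 170 and 170 TPM to 66.9 and 80.4 TPM (log2 fold change -1.20, adjusted p = 3.72e-04 from limma), and shares 1077 exonic bases with another gene on the same strand. LIG1, the replicative ligase that UHRF1 recognises, fell by 1.00 on the log2 scale (adjusted p = 2.74e-04 from limma). The chromatin assembly factor subunits CHAF1A (-0.86) and CHAF1B (-0.97), the histone methyltransferase SUV39H1 (-0.74) and HDAC2 (-0.51) fell as well, and SUV39H1 shares 685 exonic bases with an unnamed gene on the opposite strand. HDAC2 lay inside the fold limit when the first sh-NC or the second sh-ANP32B library was left out, at -0.41 and -0.45. UHRF2, the paralog of UHRF1, had 65.0 and 70.4 TPM against 48.5 and 47.1 TPM and a value of -0.49, next to the limit. KAT5 had the only positive value, 0.11 (adjusted p = 0.193 from limma), and shares 1439 exonic bases with RNASEH2C on the opposite strand. RNASEH2C had 47.4 and 46.4 TPM in sh-NC and 56.5 and 59.1 TPM in sh-ANP32B.

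Among partners of de novo methylation and ICF genes, 2 of 9 fell and 0 rose, beside 10.1% and 17.9% of all genes. At an unadjusted p below 0.05 in limma 4 were lower and 1 was higher, against 23.2% and 30.9% of all genes. TRIM28, the scaffold through which zinc finger proteins silence repeats, fell from 432 and 436 TPM to 274 and 285 TPM (log2 fold change -0.63, adjusted p = 2.16e-04 from limma). NSD2, a histone H3 methyltransferase, had a value of -0.61 (adjusted p = 0.00587 from limma), which was -0.45 and no longer called without the second sh-NC library. ZBTB24, the ICF gene that activates CDCA7 transcription, had 9.94 and 8.53 TPM in sh-NC and 7.03 and 7.12 TPM in sh-ANP32B, and its value of -0.34 did not pass the test (adjusted p = 0.0794 from limma). DNMT3L, the cofactor of the de novo enzymes in germ cells, had no row.

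Among the readers of methylated CpG and their relatives, 3 of 8 tested genes rose and 0 fell, beside 17.9% and 10.1% of all genes. At an unadjusted p below 0.05 in limma 3 were higher and 1 was lower, against 30.9% and 23.2% of all genes. ZBTB4, a zinc finger reader, rose from 18.4 and 18.4 TPM to 32.7 and 34.8 TPM (log2 fold change 0.84, adjusted p = 5.97e-04 from limma). MBD6 rose by a log2 fold change of 0.61 and MBD5 by one of 0.72, members of the methyl-CpG-binding domain family whose domains do not bind methylated DNA. Both overlap exons of opposite-strand genes, by 516 bases between MBD6 and DCTN2. MBD5 had 7.17 and 5.92 TPM against 10.3 and 12.5 TPM and was not called without the second sh-ANP32B library (adjusted p = 0.0585 from limma). MBD1 (0.14), MBD2 (0.04), MBD3 (-0.08) and MBD4 (-0.08) were not called. Of 6 tested proteins with a CXXC domain, which binds unmethylated CpG, 0 were called, with log2 fold changes from -0.23 for CXXC5 to 0.21 for KDM2A. CXXC5 and KDM2A were also the 2 with an unadjusted p below 0.05 in limma, and their adjusted p stayed below it. Of all genes, 23.2% were lower and 30.9% higher at that unadjusted p.

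The list for steps downstream of the TET enzymes also held genes that serve these enzymes, such as IDH1 and IDH2. Of its 15 genes tested, 5 fell and 2 rose, beside 10.1% and 17.9% of all genes. At an unadjusted p below 0.05 in limma 9 were lower and 5 higher, against 23.2% and 30.9% of all genes. NEIL3, a DNA glycosylase of proliferating cells, fell from 50.9 and 49.1 TPM to 18.2 and 17.9 TPM (log2 fold change -1.42, adjusted p = 1.23e-04 from limma), and UNG, the uracil glycosylase, had a value of -0.87. NEIL1 was higher, with 7.88 and 9.67 TPM against 21.6 and 14.5 TPM (log2 fold change 0.95, adjusted p = 0.0140 from limma), and was not called without the first sh-NC library. NEIL1 shares 1832 exonic bases with MAN2C1 on the opposite strand, and the strand setting of the quantification is not given in the sources used here. TDG, the glycosylase that removes the oxidised bases made by TET enzymes, had a value of -0.28, inside the fold limit. APEX1 (-0.58) and PARP1 (-0.54) of base excision repair fell, though PARP1 lay inside the fold limit with quantile normalization, at -0.47. IDH1 and IDH2, which make the alpha-ketoglutarate that TET enzymes need, went in opposite directions. IDH1, the cytosolic form, rose from 230 and 232 TPM to 367 and 364 TPM (log2 fold change 0.66, adjusted p = 1.70e-04 from limma), and IDH2, the mitochondrial form, fell from 201 and 210 TPM to 111 and 119 TPM (log2 fold change -0.84, adjusted p = 2.39e-04 from limma). The ratio of IDH1 to IDH2 TPM was 1.15 and 1.10 in control cells and 3.31 and 3.07 after knockdown.

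Of the 8 genes reported here for the supply of the methyl donor, 1 fell and 0 rose, beside 10.1% and 17.9% of all genes. At an unadjusted p below 0.05 in limma 4 were lower and 1 was higher, against 23.2% and 30.9% of all genes. The gene called lower was MTR, methionine synthase, which fell by 0.63 on the log2 scale. AHCY had a value of -0.46, inside the fold limit (adjusted p = 5.51e-04 from limma). MAT2A, which makes the donor S-adenosylmethionine, had 390 and 392 TPM in sh-NC and 344 and 332 TPM in sh-ANP32B, a log2 fold change of -0.21 inside the fold limit, and it shares 562 exonic bases with GGCX on the opposite strand.

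**Figure D4:**
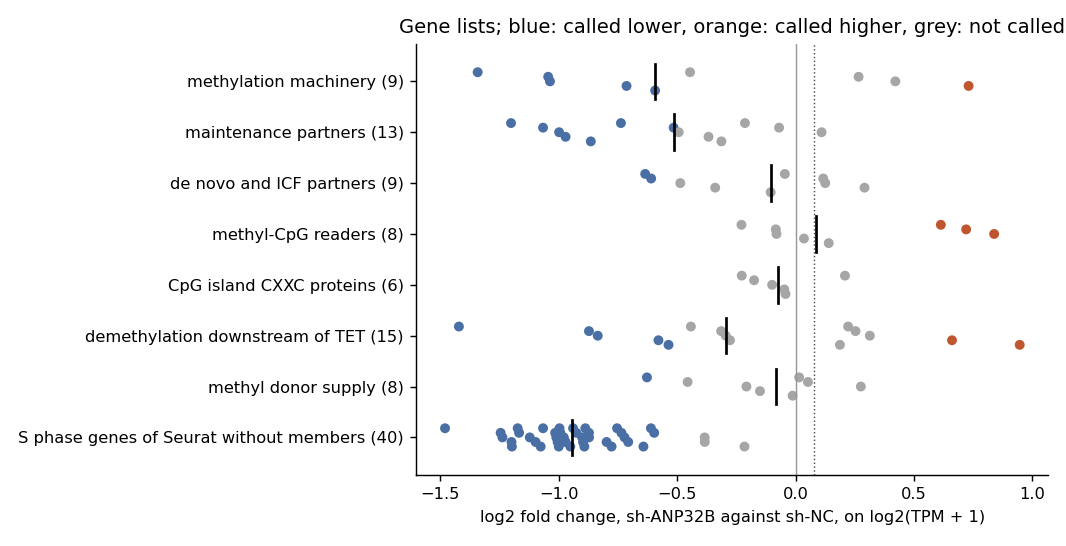
Log2 fold changes of the listed methylation genes, of the 6 pathway lists and of the S-phase genes, with 1 point per gene tested, a black bar at the median of each list and a dotted line at the median of all genes, 0.08. The medians run from -0.95 for the S-phase genes to 0.09 for the methyl-CpG readers. PCNA, CHAF1B and UNG are plotted both in a pathway list and among the S-phase genes.

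Germline genes that are kept silent by promoter methylation in somatic cells were looked at as well. Of 28 such genes, among them DAZL, MAEL and the MAGEA genes, 26 had no row in the table, which starts at a mean of about 0.5 TPM over the 4 libraries, and 2 were tested. XAGE1A had 161 and 154 TPM in sh-NC and 119 and 125 TPM in sh-ANP32B (adjusted p = 0.00248 from limma), with a log2 fold change of -0.36 inside the limit, and it belongs to a family of near-identical copies. TKTL1 had 6.37 and 9.31 TPM against 7.82 and 10.6 TPM, groups that overlapped. Both genes were expressed in the control cells, so neither can show a silent gene becoming active. A rise in the genes without a row could not be seen if their mean stayed below about 0.5 TPM. Methylation of DNA was not measured in these libraries.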

How the data were processed

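RNA-seq reads of MV4-11 cells were aligned by the authors to hg38 with HISAT2 (version 2.0.5, per the labels), and the authors deposited 1 value per gene and library. The deposited values are TPM, a unit read from the values, as the libraries summed to between 997271 and 998546. The counting tool, annotation and strand setting are not given in the sources used here. TPM keep no read numbers, which leaves the depth unknown, and counting error is not given. The knockdown columns carry the mark S3 and were matched to the sh-ANP32B samples by replicate number.

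Of 18885 gene identifiers, 17290 were matched to GENCODE symbols (version 44), and promoters came from RefSeq on GRCh38.p14. The 16937 genes that reached 1 TPM in 2 or more libraries entered limma 3.58.1 in R 4.3.3 (lmFit, eBayes with a trend) on log2(TPM + 1), with Benjamini-Hochberg adjustment over all of them. The study's own test needs counts and was not used. The call used the study's fold limit of 0.5 and an adjusted p below 0.05. With 2 libraries against 2, an exact two-sided permutation test of a single gene cannot go below 0.333, so calls rest on the variance shared across genes. The fit was tested on simulated data. Python 3.11.15 made the tables and plots.

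The genes, lists and tests were chosen with earlier results of these data known. Named were all 10 listed genes, ANP32B, up to 4 genes at either end of each list, further list genes whose role called for it, and the 5 genes nearest to CDCA7 and to UHRF1. A further 4 genes of these lists, called ones among them, are not reported here and were left out of the list counts. The E2F motif was chosen after the values were seen. Alternatives were a replicate block, no filter, a pseudocount of 0.1, median-of-ratios and quantile scaling, other call limits, and each library left out. Libraries of other cells and other assays were not analysed here.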

Additional observations from a re-analysis of the deposited data

How the results depend on the processing

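No listed gene changed the sign of its log2 fold change under the 9 alternative fits, but most of these could not have changed it. The replicate block and the lack of a filter leave the fold change as it is. As the groups did not overlap for any listed gene, neither a left-out library nor the smaller pseudocount could reverse a sign. Only median-of-ratios scaling and quantile normalization could have done so. The calls of DNMT1, UHRF1, CDCA7, CDCA7L, HELLS and DNMT3A held in the fits that used all 4 libraries. DNMT3B was also called lower with median-of-ratios scaling (-0.54), and its value was -0.53 without the first sh-NC library. These calls describe values that were known when the list was chosen, so their holding across fits of the same libraries is no test of them. With libraries left out in turn, 5 to 6 listed genes were called lower and 1 higher, and 14 to 17 pathway genes lower and 4 to 5 higher. A fold limit of 1 left 3 listed genes lower (CDCA7, UHRF1 and HELLS) and 0 higher, and 3 pathway genes lower and 0 higher, of 1.61% and 6.71% of all genes, since fewer genes pass a stricter limit. The median of all genes was 0.08 on the deposited TPM, -0.0045 with median-of-ratios scaling and -0.04 with quantile normalization. Across genes, libraries with a shared number showed no common deviation (correlation -0.0232), and the labels do not say that a number marks a shared culture. With the replicate number as a block, 5 listed genes were called lower and 1 higher, and 15 pathway genes lower and 5 higher, as without it. Over all genes the block gave 1671 lower and 2853 higher calls, against 1712 and 3024. UHRF2, TASOR, LIG3, ZBTB24 and AHCY were called lower, and HDAC2, NSD2, PARP1, MBD5 and NEIL1 lost their call, in at least 1 alternative fit. Each group holds 2 libraries of unknown depth, which limits all of these values.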
